A study of Mus musculus with 6 samples.

Results

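The matrix metalloproteinases (MMPs), the ADAM and ADAMTS proteases and their inhibitors were examined in Tmem161a-KO and WT MC3T3-e1 cells. The members were all array rows whose gene symbol begins with Mmp, Adam or Adamts followed by a digit, together with Timp1, Timp2, Timp3, Timp4 and Reck. They numbered 70 of the 19571 rows that carry a gene symbol, and comprised 19 MMPs, 29 ADAMs, 17 ADAMTS proteases and 5 inhibitors. The 6 rows of this kind on chromosomes 14 and 17 (Mmp14, Mmp25, Adam2, Adam7, Adam28 and Adamts10), 1 of which passed the test, were not counted as members.

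Both groups were MC3T3-e1 cells, an osteoblastic line from mouse calvaria. The Tmem161a-KO cells were 1 line, edited with CRISPR/Cas9 to carry small deletions in Tmem161a and grown out by limited dilution, and the WT cells were the unedited parent. RNA from 3 samples of each was read on single-colour Clariom S mouse arrays. The sources used here state neither the culture conditions at harvest nor whether samples of a group were separate cultures, and the spread behind the p-values may therefore be technical only. The effect of Tmem161a cannot be told apart from a property of the 1 edited line.

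All 3 protease families cut proteins with a zinc ion held in the active site. MMPs degrade collagens and other matrix proteins and are made as inactive precursors, ADAMs are membrane proteins of which some release growth factors and receptors from the cell surface, and ADAMTS proteases are secreted and process procollagens, proteoglycans and microfibril proteins. The TIMPs block the active site of MMPs and of some ADAM and ADAMTS proteases, and Reck is a membrane-anchored inhibitor of MMPs. In bone, osteoblasts use such proteases to remodel the collagen matrix they lay down, and Mmp13 and Mmp14 are among the collagenases known to act there.

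Promoter windows from the RefSeq table (build GRCm38.p6, 250 bases before and 50 after a start site, 300 in all) matched 44 of the 70 members and gave 49 windows. The AP-1 site, TGANTCA, was found in 13 of these windows (26.5%), against 7.81% of all 32851 windows of the table. It was in 8 of the 17 MMP windows, 5 of 18 ADAM windows, 0 of 9 ADAMTS windows and 0 of 5 inhibitor windows. The windows are not independent, since the matches of Adam20 and Adam25 lie in the same letters over 11 bases on each side. Those of Mmp1a and Mmp1b lie in similar letters. The MMP matches were all in the gene cluster of chromosome 9, where 8 of 9 genes had one and Mmp8 had none. The matches of this cluster are shown because they lie within 95 bases of the start of genes that stayed at background on these arrays, and that of Adam19 because this member rose. Each is written 5′ to 3′ on the strand of its gene, with 11 bases on each side and the AP-1 letters in capitals.
Mmp13: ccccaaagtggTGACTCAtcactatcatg
Mmp12: gacatcaacagTGAGTCAgatagaggatt
Mmp3: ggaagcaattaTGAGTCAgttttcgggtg
Mmp10: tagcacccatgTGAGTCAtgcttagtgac
Mmp7: aagtgtgcaaaTGAGTCAcctatttccac
Mmp1a: gttgtcaaccaTGAGTCAcatagcctctg
Mmp1b: gttacaaagccTGAGTCAtatagcctctg
Mmp20: catttgagacaTGAATCAtcacttacagg
Adam19: tgtccttcaccTGAGTCAgcgatgctccc

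The first base of the AP-1 letters lay 35 bases before the start in Mmp13 (chr9:7272468-7272496 for the stretch shown, plus strand), 44 in Mmp12 and 46 in Mmp3. It lay 63 bases before the start in Mmp10 and in Mmp7, 73 in Mmp1a, 93 in Mmp1b and 95 in Mmp20. In Adam19 (chr11:46055842-46055870, plus strand) it lay 131 bases before. The letters were TGAGTCA in Mmp12, Mmp3, Mmp10, Mmp7, Mmp1a, Mmp1b and Adam19, TGACTCA in Mmp13 and TGAATCA in Mmp20.

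Of the 7 members that passed the test, windows were matched for Adam19, Adamts14 and Timp3. The 250 bases before the start are shown for these 3 members, which all rose, with capitals for matches on either strand to AP-1, RUNX (TGTGGT), TEAD (GGAATG), the GC box (GGGCGG) and the TATA box (TATAAA). Neighbouring GC boxes can share a base.
Adam19: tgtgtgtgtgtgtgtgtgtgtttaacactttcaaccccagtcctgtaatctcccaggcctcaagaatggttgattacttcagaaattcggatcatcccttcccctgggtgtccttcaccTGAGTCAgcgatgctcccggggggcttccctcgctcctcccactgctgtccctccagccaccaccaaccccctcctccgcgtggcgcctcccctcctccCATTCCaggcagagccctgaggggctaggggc
Adamts14: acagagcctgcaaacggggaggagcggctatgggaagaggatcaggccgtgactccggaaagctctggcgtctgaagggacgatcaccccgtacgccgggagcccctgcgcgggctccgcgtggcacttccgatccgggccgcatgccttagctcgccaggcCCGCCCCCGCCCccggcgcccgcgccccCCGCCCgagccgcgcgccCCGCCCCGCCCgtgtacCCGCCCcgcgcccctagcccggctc
Timp3: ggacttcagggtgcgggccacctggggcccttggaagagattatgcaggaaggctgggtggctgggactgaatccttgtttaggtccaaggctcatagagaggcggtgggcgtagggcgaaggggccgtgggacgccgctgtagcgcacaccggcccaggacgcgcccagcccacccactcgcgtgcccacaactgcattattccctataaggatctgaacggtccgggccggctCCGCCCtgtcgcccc

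The Adam19 stretch (chr11:46055734-46055983, plus strand) held the AP-1 match above and 1 TEAD match, 32 bases before the start on the opposite strand. The table gives this gene 3 start sites, and its other windows had no AP-1 match and no GC box. The Adamts14 stretch (chr10:61273420-61273669, minus strand) held 6 GC boxes and had a GC content of 76.4%, and the Timp3 stretch (chr10:86300162-86300411, plus strand) held 1 GC box at 65.6% GC. Of the 5 motifs searched, the GC box was in a whole window of each of the 3 genes, that of Adam19 lying across the start site. Over the whole windows of the members, the GC box was in 40.8% (35.7% of all windows), the TATA box in 30.6% (13.6%), RUNX in 18.4% (16.8%) and TEAD in 8.16% (14.7%). Of the 15 member windows with a TATA box, 9 were in the MMP cluster of chromosome 9. A match describes letters only, and binding of a factor was not measured.

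The values below are intensities as the authors normalized them, on a linear scale. A log2 fold change is Tmem161a-KO minus WT, fitted with limma over all 19571 rows with a symbol, and a gene passed at a Benjamini-Hochberg adjusted p under 0.05. Intensities of different genes come from different probes and are not compared. The sums over marker lists are an exception, and they add unlike probes, with genes below background among them. Olfactory receptor genes, which osteoblastic cells are not known to use, gave a measure of background, and a gene was called above background in a group when its mean there exceeded the 95th percentile of their 1091 rows (intensity 100.1, log2 6.65).

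Of the 70 members, 6 rose and 1 fell, while 63 were not called. The genes that rose were Adam12, Adam19, Adamts4, Adamts6, Adamts14 and Timp3, and the gene that fell was Mmp16. The 7 genes make up 10% of the members, against 9.91% of all rows tested. The 6 that rose were 8.57% of the members, against 5.73% higher over all rows, and Mmp16 was 1.43%, against 4.17% lower. Among the 29 members whose mean over the 6 arrays was above background, 24.1% passed, against 14.2% of all such rows. The groups did not overlap in 20 members (28.6%), against 28.9% of all rows. The median log2 fold change was -0.06 over the 70 members and -0.01 over all rows. These shares are descriptions, and the 7 genes lie on 6 chromosomes.

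**Figure D1:**
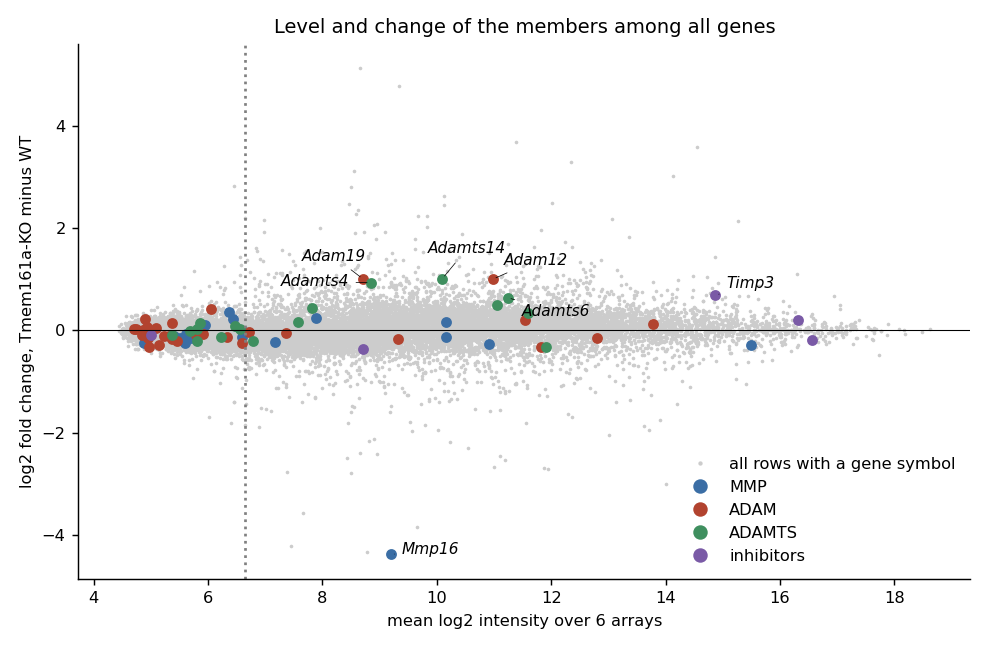
Mean log2 intensity over the 6 arrays (horizontal) and log2 fold change, Tmem161a-KO minus WT (vertical), of all rows with a gene symbol in grey and of the 70 members in the colour of their family, with the background percentile of 6.65 as a dotted line. Mmp16 lies at -4.37 and the 6 members that rose lie between 0.64 and 1.01, while most members left of the dotted line lie near 0.

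Mmp16, also called MT3-MMP, is a membrane-type matrix metalloproteinase that can activate the precursor of Mmp2 at the cell surface. It had intensities of 94.2, 158 and 143 on the Tmem161a-KO arrays, against 2381, 2951 and 2688 on the WT arrays. The highest Tmem161a-KO array was far under the lowest WT array, and 1 of the 3 Tmem161a-KO arrays was under the background percentile. The gene fell by 4.37 on the log2 scale (standard error 0.17, 95% interval -4.73 to -4.02, adjusted p = 2.46e-10), a 20.7-fold lower intensity. Because the Tmem161a-KO level is close to background, this difference may understate the difference in RNA, and fewer expressing cells and less RNA per cell cannot be told apart in bulk samples. The log2 fold change stayed between -4.52 and -4.15 with any 1 array left out.

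None of the other 18 MMPs passed the test, and their log2 fold changes ran between -0.27 and 0.36. The other membrane-type genes among the members were Mmp24, at a log2 fold change of -0.23 (adjusted p = 0.275), and Mmp17, which was below background in both groups. Mmp2, a gelatinase that acts on denatured and type IV collagen, had intensities of 44673, 41616 and 39129 on the Tmem161a-KO arrays, against 50555, 51311 and 49556 on the WT arrays. Every Tmem161a-KO array was below every WT array, but the difference was small beside that of Mmp16, at -0.27 on the log2 scale (standard error 0.11, adjusted p = 0.139). Of the alternatives with adjusted p-values, Mmp2 passed in 1, in which eBayes was run with an intensity trend and a robust prior together (adjusted p = 0.0435). Mmp9, the other gelatinase, gave 88.2, 101 and 88.4 on the Tmem161a-KO arrays and 103, 87.5 and 114 on the WT arrays. These values straddle the background percentile, and the groups overlap (log2 fold change -0.13, adjusted p = 0.583).

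Among the MMPs with other substrates, Mmp19 gave 1605, 1862 and 1844 on the Tmem161a-KO arrays and 2206, 1955 and 2195 on the WT arrays (log2 fold change -0.26, adjusted p = 0.181), without overlap. Mmp23 was higher on every Tmem161a-KO array than on every WT array, at a log2 fold change of 0.24 (adjusted p = 0.209). Mmp11, a stromelysin, gave a log2 fold change of 0.17 (adjusted p = 0.500) and Mmp28 gave a log2 fold change of -0.13 (adjusted p = 0.648), both with overlapping groups. None of these 4 differences passed the test.

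The 9 MMP genes of the chromosome 9 cluster, 8 of which have an AP-1 site printed above, were all below background in both groups, and none passed the test. They include the collagenases and most of the stromelysins, which are known as inducible genes. Mmp13, the main interstitial collagenase of mouse bone, gave 94.9, 88.4 and 99.1 on the Tmem161a-KO arrays, against 78.1, 69.6 and 71.8 on the WT arrays. The groups did not overlap, yet both stayed under the background percentile of 100.1, and the difference of 0.36 on the log2 scale (standard error 0.11, adjusted p = 0.0541) did not pass. It passed with quantile normalization (log2 fold change 0.45, adjusted p = 0.0219) and with the arrays centred on their medians (log2 fold change 0.42, adjusted p = 0.0245). The other 8 genes of the cluster had log2 fold changes between -0.24 and -0.02. Mmp1a and Mmp1b are close copies and may share probe signal.

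Adam12 and Adam19 rose, and the other 27 ADAMs did not pass the test. Adam12, or meltrin alpha, is known to cut insulin-like growth factor binding proteins and heparin-binding EGF-like growth factor. Its intensities were 3777, 2718 and 2249 on the Tmem161a-KO arrays, against 1348, 1186 and 1802 on the WT arrays. The groups did not overlap, and the nearest arrays across them were replicate 3 of each. The log2 fold change was 1.001 (standard error 0.18, 95% interval 0.62 to 1.39, adjusted p = 0.00185). Adam19, or meltrin beta, takes part in neuregulin processing. It had 771, 493 and 549 on the Tmem161a-KO arrays, against 277, 282 and 330 on the WT arrays. All Tmem161a-KO arrays were higher, with replicate 1 well above the other two, and the log2 fold change was 1.01 (standard error 0.15, 95% interval 0.68 to 1.33, adjusted p = 0.000429).

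The sheddases best known for releasing cell-surface proteins differed by less. Adam10 gave 6909, 5998 and 7376 on the Tmem161a-KO arrays and 7951, 7113 and 7393 on the WT arrays (log2 fold change -0.15, adjusted p = 0.478). Adam17, which releases TNF and EGF receptor ligands, gave 2893, 3030 and 3710 on the Tmem161a-KO arrays and 2640, 2717 and 2964 on the WT arrays (log2 fold change 0.20, adjusted p = 0.335). In both genes the groups overlapped. Adam9 was slightly higher on every Tmem161a-KO array (log2 fold change 0.13, adjusted p = 0.537), whereas Adam15 (log2 fold change -0.16, adjusted p = 0.496) and Adam8 (log2 fold change -0.03, adjusted p = 0.917) overlapped. Adam11 and Adam23, which lack protease activity, gave a log2 fold change of -0.24 (adjusted p = 0.262) and -0.32 (adjusted p = 0.212).

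Of the remaining 20 ADAMs, most of which are known from testis and sperm, 19 were below background in both groups, with Adam33 and Adam22 among them. The exception was Adam1b, at a log2 fold change of -0.05 (adjusted p = 0.844). Among these 20, Adam26a and Adam26b, and likewise Adam6a and Adam6b, are close copies whose probes may share signal. Over all 29 ADAMs the median log2 fold change was -0.07, with 12 above 0 and 17 below.

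**Figure D2:**
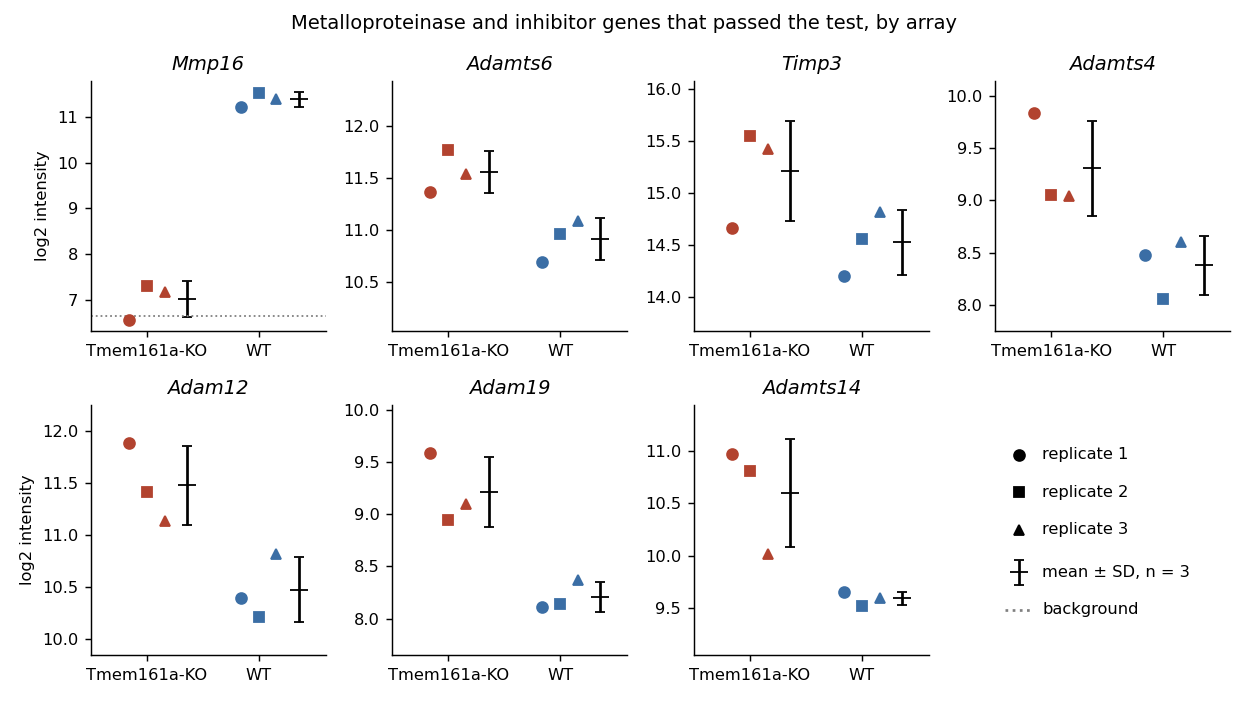
Log2 intensity of the 7 members that passed the test, with the 3 Tmem161a-KO arrays (red) left of the 3 WT arrays (blue), marker shape for the replicate number, and mean ± SD (n = 3) beside each group; each panel has its own vertical range. Mmp16 is lower on all Tmem161a-KO arrays and touches the background line, 5 genes are higher on all of them, and in Timp3 the lowest Tmem161a-KO array (25960) lies under the highest WT array (28896).

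Adamts14, Adamts4 and Adamts6 rose, and the other 14 ADAMTS genes did not pass the test. Adamts14 removes the amino-terminal propeptide of fibrillar procollagens. It had 2012, 1796 and 1032 on the Tmem161a-KO arrays, against 803, 734 and 774 on the WT arrays. The WT arrays lay close together, whereas Tmem161a-KO replicate 3 was nearer to them than to replicates 1 and 2. The log2 fold change was 1.01 (standard error 0.19, 95% interval 0.61 to 1.41, adjusted p = 0.00242). Adamts3, the related procollagen protease measured here, was below background in both groups. Adamts4 is an aggrecanase, which cuts the cartilage proteoglycan aggrecan and versican. Its intensities were 913, 529 and 528 on the Tmem161a-KO arrays, against 355, 266 and 388 on the WT arrays. Replicate 1 stood well above the other Tmem161a-KO arrays, and all 3 were above the WT arrays. The log2 fold change was 0.93 (standard error 0.19, 95% interval 0.52 to 1.34, adjusted p = 0.00521), and it was 0.67 without Tmem161a-KO replicate 1.

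Adamts6, which is associated with fibrillin microfibrils, had 2632, 3486 and 2968 on the Tmem161a-KO arrays, against 1654, 1995 and 2181 on the WT arrays. The groups did not overlap, and in this gene replicate 1 was the lowest array of each group. The log2 fold change was 0.64 (standard error 0.14, 95% interval 0.35 to 0.93, adjusted p = 0.0068). The remaining proteoglycan-cleaving genes did not pass the test. Adamts1 gave 2002, 2989 and 2656 on the Tmem161a-KO arrays and 1462, 2303 and 1686 on the WT arrays, a log2 fold change of 0.50 with overlapping groups (adjusted p = 0.0824). Adamts5, its neighbour on chromosome 16 and the other main aggrecanase, gave 2876, 3632 and 3876 on the Tmem161a-KO arrays and 3521, 6306 and 3609 on the WT arrays. Its log2 fold change was -0.33 (adjusted p = 0.312), and a single WT array, replicate 2, was far above all others, so that without it the value was -0.05.

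Adamts9 gave a log2 fold change of 0.44 (adjusted p = 0.0889) and Adamts20 of -0.20 (adjusted p = 0.289). Adamts12 and Adamts7, a pair that cuts cartilage oligomeric matrix protein, were both higher on every Tmem161a-KO array than on every WT array. Adamts12 had 3985, 3238 and 3263 on the Tmem161a-KO arrays, against 2815, 2534 and 2914 on the WT arrays (log2 fold change 0.34, adjusted p = 0.0954). Adamts7 gave a log2 fold change of 0.16 (adjusted p = 0.394). The other 8 ADAMTS genes, Adamts3 included, were below background in both groups. Over the 17 ADAMTS genes the median log2 fold change was 0.09, with 11 above 0 and 6 below, against -0.01 over all rows.

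Among the inhibitors Timp3 rose. Timp3 binds to the extracellular matrix and is known to inhibit Adam17 and the aggrecanases besides MMPs. Its intensities were 25960, 47884 and 43952 on the Tmem161a-KO arrays, against 18809, 24138 and 28896 on the WT arrays. Replicates 2 and 3 of the Tmem161a-KO cells were above all WT arrays, while replicate 1 lay within the WT range. The log2 fold change was 0.69 (standard error 0.20, 95% interval 0.26 to 1.11, adjusted p = 0.0414). Among the 7 calls it was the one lost most often, in 11 of 17 alternatives, with quantile normalization (adjusted p = 0.0713) and array weights (adjusted p = 0.0552) among them. Without Tmem161a-KO replicate 1 the log2 fold change was 0.96 (adjusted p = 0.00223).

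Reck had 320, 399 and 392 on the Tmem161a-KO arrays, against 484, 523 and 422 on the WT arrays. All Tmem161a-KO arrays were below all WT arrays, but the difference of -0.37 on the log2 scale (standard error 0.13, adjusted p = 0.0868) did not pass the test. Timp2, which joins the activation complex of Mmp2 at the cell surface, gave 84888, 95982 and 89588 on the Tmem161a-KO arrays and 104738, 100679 and 103854 on the WT arrays (log2 fold change -0.20, adjusted p = 0.301). It too showed no overlap, with a small difference. Timp1 gave a log2 fold change of 0.20 (adjusted p = 0.462), with overlapping groups, and Timp4 was below background in both groups (log2 fold change -0.09, adjusted p = 0.669).

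**Figure D3:**
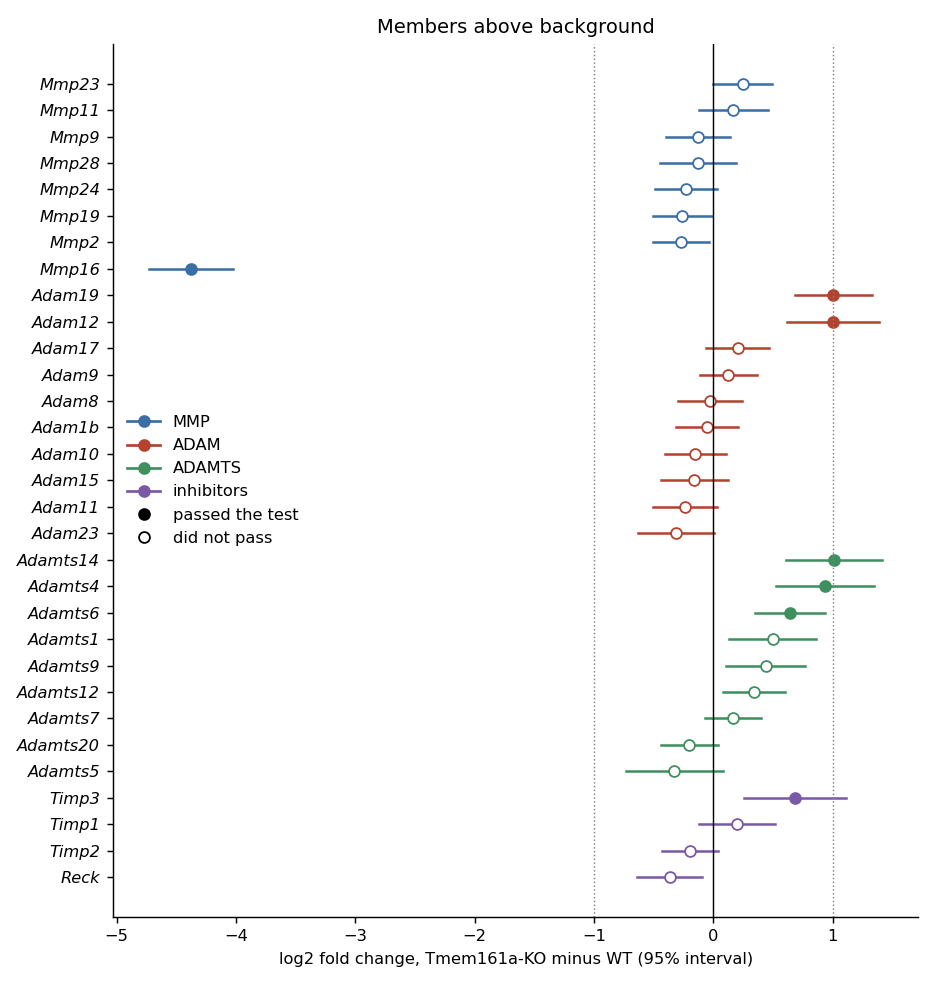
Log2 fold change with its 95% interval, Tmem161a-KO minus WT, of the 31 members above background in at least 1 group, grouped by family, with filled points for genes that passed the test and dotted lines at a 2-fold change either way. Mmp16 stands alone at -4.37, the 6 genes that rose lie between 0.64 and 1.01, and the intervals of the other 24 genes all lie inside the dotted lines.

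Altogether 31 members were above background in at least 1 group, namely 8 MMPs, 10 ADAMs, 9 ADAMTS genes and 4 inhibitors. The 24 of them that did not pass had log2 fold changes between -0.37 and 0.50. Their 95% intervals ran from -0.73 at the lowest to 0.86 at the highest. Each of the 24 intervals thus excluded a 2-fold change in intensity, while 18 of them included 0. Of the 24, Mmp9, Adam8, Adam11 and Adamts20 lay near background, where a narrow interval of intensity does not exclude a larger change in RNA. The 39 members below background in both groups had log2 fold changes between -0.33 and 0.42, and none was called in the main comparison. Of these 39, 5 were at an unadjusted limma p under 0.05, against 4778 of all 19571 rows, bright rows included. Mmp13, as given above, is the named gene among them that passed under other scalings, and near background a missed call does not show that a change is absent.

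Replicate 1 was the highest Tmem161a-KO array in 4 of the 6 genes that rose (Adam12, Adam19, Adamts4 and Adamts14), replicate 2 in the other two (Adamts6 and Timp3), and replicate 3 in 0. Without Tmem161a-KO replicate 1, the log2 fold change was 0.80 for Adam12, 0.82 for Adam19 and 0.82 for Adamts14, and all 3 still passed. The upper quartile of intensity over all rows was 1439 to 1455 on the Tmem161a-KO arrays and 1379 to 1393 on the WT arrays, and the lower quartile was 62.0 to 64.1 on the Tmem161a-KO arrays and 65.4 to 66.3 on the WT arrays. Bright rows thus tended up in the deposited values, and the part of this tendency in the smaller rises was not tested.

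Genes that work with these proteases were taken from lists of the plasminogen system, proprotein convertases, partners and substrates of ADAMs, other regulators, and related enzymes. In the plasminogen system, which activates several MMP precursors, 1 of 9 measured genes rose and none fell. This was Plat, tissue plasminogen activator, with 727, 600 and 433 on the Tmem161a-KO arrays, against 408, 359 and 330 on the WT arrays (log2 fold change 0.65, adjusted p = 0.0173). Every Tmem161a-KO array was above the WT arrays. Plau of the same list, on chromosome 14, was lower on every Tmem161a-KO array than on every WT array. Its log2 fold change was -0.40 (adjusted p = 0.0824), and it did not pass. Of the 7 measured proprotein convertases, which remove the propeptides of ADAMs, ADAMTS proteases and membrane-type MMPs, 1 rose. This was Pcsk7, at a log2 fold change of 0.57 (adjusted p = 0.04), while Furin gave a log2 fold change of 0.03 and did not pass.

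Among 15 measured partners and substrates of ADAMs, 2 rose and 3 fell. Tspan14 and Tspan5 belong to the tetraspanins that carry Adam10 to the cell surface. Tspan14, which lies on chromosome 14, rose by 0.83 on the log2 scale (adjusted p = 0.000125), and Tspan5 rose by 0.76 on the log2 scale (adjusted p = 0.0167) with groups that overlapped. The other listed tetraspanins did not pass, and their log2 fold changes were below 0. These were Tspan17 (-0.35, adjusted p = 0.0777), Tspan33 (-0.27, adjusted p = 0.184), and, below background in both groups, Tspan10 (-0.31, adjusted p = 0.148) and Tspan15 (-0.18, adjusted p = 0.496). The genes that fell encode membrane precursors that ADAMs release. Nrg1, neuregulin, had 4058, 5015 and 4185 on the Tmem161a-KO arrays, against 6915, 7573 and 7202 on the WT arrays (log2 fold change -0.72, adjusted p = 0.000957). Cx3cl1, or fractalkine, had 2422, 2125 and 1753 on the Tmem161a-KO arrays, against 3421, 4343 and 4639 on the WT arrays (log2 fold change -0.98, adjusted p = 0.000357). In both the groups were well apart. Ereg, epiregulin, fell by 0.58 on the log2 scale (adjusted p = 0.0152). The other shed ligands of the list did not pass. Hbegf, heparin-binding EGF-like growth factor, gave a log2 fold change of 0.37 (adjusted p = 0.175), and Tgfa and Btc gave -0.08 each, Btc below background.

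Of 13 other regulators, 1 rose and 4 fell. Lrp1, an endocytic receptor that clears proteases and their inhibitor complexes, had 24797, 26418 and 22623 on the Tmem161a-KO arrays, against 38748, 36690 and 35574 on the WT arrays (log2 fold change -0.59, adjusted p = 0.00307). The groups were well apart. Spock2, a testican proteoglycan, gave a log2 fold change of -0.98 (adjusted p = 0.000118), and Cldn1, a tight junction claudin, gave a log2 fold change of -1.16 (adjusted p = 0.00426). A2m, a plasma protease inhibitor, gave a log2 fold change of -0.44 (adjusted p = 0.0456) at intensities below background. Pcolce2, which enhances the removal of procollagen propeptides, rose by 0.60 on the log2 scale (adjusted p = 0.0446), with overlapping groups. Pcolce of the same list went the other way, at a log2 fold change of -0.33. Every Tmem161a-KO array was below every WT array for Pcolce, but it did not pass (adjusted p = 0.0868).

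In the astacin and pappalysin metalloproteases, which are zinc proteases outside the 3 families, 2 of 8 genes rose and 1 fell. Pappa, which like Adam12 cuts binding proteins of insulin-like growth factors, rose by 3.68 on the log2 scale (adjusted p = 2.95e-09), with 11647, 10583 and 7118 on the Tmem161a-KO arrays, against 710, 916 and 638 on the WT arrays. Its relative Pappa2 moved the other way. It had 3065, 6738 and 8297 on the Tmem161a-KO arrays, against 9894, 19938 and 15611 on the WT arrays, with a difference of -1.39 on the log2 scale (adjusted p = 0.0061) and a wide spread in both groups. Bmp1, a procollagen carboxy-terminal proteinase on chromosome 14, rose by 1.96 on the log2 scale (adjusted p = 1.03e-07). Of the 7 ADAMTS-like proteins, which resemble ADAMTS proteases but lack the protease domain, none rose and 2 fell. Thsd4, which promotes fibrillin microfibril assembly, had 112, 339 and 253 on the Tmem161a-KO arrays, against 3622, 3028 and 2550 on the WT arrays (log2 fold change -3.83, adjusted p = 3.29e-07), and Adamtsl4 fell by 0.57 on the log2 scale (adjusted p = 0.0415) with overlapping groups. The shares that passed were 11.1%, 14.3%, 33.3%, 38.5%, 37.5% and 28.6% in the order of the lists given here. They are to be read against 9.91% of all rows and 14.2% of the rows whose mean was above background. Most of the listed genes were above background, and the lists were chosen with earlier results of these data known. No list was tested as a set.

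**Figure D4:**
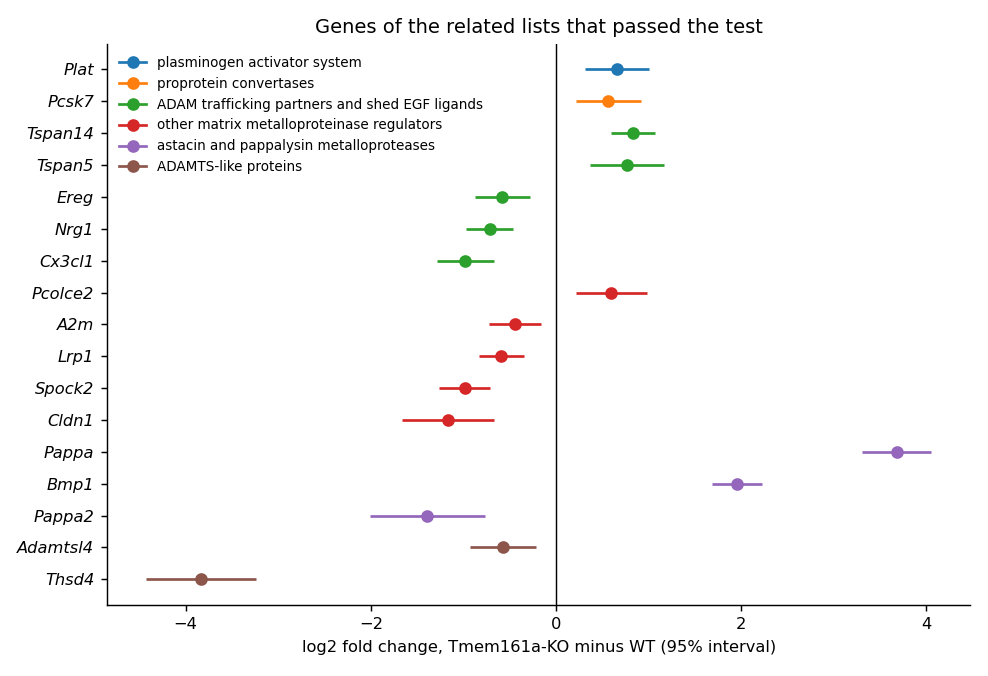
Log2 fold change with its 95% interval, Tmem161a-KO minus WT, of the 17 genes of the related lists that passed the test, coloured by list. Pappa (3.68) and Thsd4 (-3.83) lie farthest from 0, and the 3 shed ligands that passed, Ereg, Nrg1 and Cx3cl1, lie below 0, while Hbegf (0.37), Tgfa and Btc (-0.08 each) did not pass and are not drawn.

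Tmem161a itself had 936, 1001 and 963 on the Tmem161a-KO arrays, against 1155, 1061 and 1229 on the WT arrays, and did not pass (log2 fold change -0.25, adjusted p = 0.192). The sources used here do not place its probes against the deletions, and the value is no check of the knockout. Of 10 measured osteoblast markers, 6 were above background, with Col1a1, Col1a2 and Sparc among them, while Alpl, Ibsp, Dmp1 and Phex were below background in both groups. Sp7, which encodes OSX, was the only one called, at a log2 fold change of 2.27 (adjusted p = 3.68e-08). The osteoblast list as a whole did not rise with it. Its median log2 fold change was -0.10, as 6 genes were lower in Tmem161a-KO, down to -0.30, and 4 were higher, Sp7 included. Markers of other cells above background numbered 3 of 9 for macrophages and osteoclasts, 0 of 7 for adipocytes, 1 of 7 for endothelium, 4 of 7 for epithelium and 6 of 8 for chondrocytes. The summed intensity of the macrophage and osteoclast list was 2423 to 2933 on the Tmem161a-KO arrays and 3164 to 3308 on the WT arrays, with Ptprc, Csf1r, Adgre1 and Itgam below background in both groups and no gene called. Most of this sum was Ctsk, at 2266, 2177 and 1690 on the Tmem161a-KO arrays and 2392, 2587 and 2477 on the WT arrays (log2 fold change -0.29, adjusted p = 0.171). That of the chondrocyte list was 12057 to 15541 on the Tmem161a-KO arrays and 11279 to 13995 on the WT arrays, and most of it was Sox9 (log2 fold change 0.41, adjusted p = 0.0954). The other 7 of the 8 chondrocyte genes had log2 fold changes below 0, and the median of the list was -0.22. In it, Col2a1 (log2 fold change -0.82, adjusted p = 0.000698) and Col11a2 (log2 fold change -0.51, adjusted p = 0.0133) fell. Krt18 of the epithelial list, whose sum was 982 to 1047 on the Tmem161a-KO arrays and 1015 to 1116 on the WT arrays, fell by 0.40 on the log2 scale (adjusted p = 0.0404), and Lep of the adipocyte list fell by 0.43 on the log2 scale (adjusted p = 0.0186) at intensities below background. The part of these markers in the results above was not tested.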

How the data were processed

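Intensity was measured on Clariom S mouse arrays of 3 Tmem161a-KO and 3 WT samples. The authors normalized the deposited intensity values with GeneSpring, left them on a linear scale and used Transcriptome Analysis Console for their analysis. The sources used here give no background correction, probe summarization or build for the probes. Of 22205 rows, 19571 carry 1 symbol in GEO's platform annotation, 0 several and 2634 none, and all named rows matched the RefSeq gene table.

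Intensities were log2 transformed with no pseudocount or further normalization, and R 4.3.3 was used to fit them with limma 3.58.1 (no covariate, eBayes, Benjamini-Hochberg adjustment over the named rows), after the code was tested on simulated data. The members and lists were chosen with earlier results of these data known. The text names every member that passed, every other member above background in a group, Mmp13 and Timp4, and every called gene of the related lists. Mmp17, Adam20, Adam22, Adam25, Adam33, Adamts3, Plau, Furin, Pcolce, Hbegf, Tgfa, Btc, Tspan10, Tspan15, Tspan17, Tspan33, Ctsk, Sox9 and the copies that may share signal were named besides. Motifs were searched with Python 3.11.15 and plots drawn with matplotlib 3.10.9. The alternatives were quantile normalization, centring, an intensity trend with a robust prior, array weights, the t-test of the study's methods, other row filters and thresholds, a replicate block, and each array left out. With 3 arrays a group, the smallest two-sided p of an exact permutation test is 0.1. Arrays carry no read depth, and their number limits the precision. Some genes of the lists are not reported here.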

Additional observations from a re-analysis of the deposited data

How the results depend on the processing

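Of the named members' values under the alternatives, 522 kept their side of the threshold, 18 lost it, 19 gained it and 0 called values changed sign. Most of these values belong to members not called in the main comparison, and the 18 losses all fall among the 7 called members. In the main comparison 6 members were higher and 1 was lower. With the arrays centred on their medians 10 were higher (Adamts1, Adamts9, Adamts12 and Mmp13 joining, each at an adjusted p between 0.0245 and 0.0481). Over all rows 1619 were then higher, and higher calls made up 72.5% of calls in place of 57.9%. Centring moved the median log2 fold change by 0.06. The methods' t-test with Benjamini-Hochberg adjustment called 0 members higher, and only Mmp16 lower (adjusted p = 0.0404). Over all 19571 rows it called 114 higher and 76 lower. At an unadjusted p under 0.05 the t-test called 9 of the 70 members higher and 7 lower. It then called 2038 higher and 1878 lower over all 19571 rows, so the members' counts are not particular to them. A minimum change of 2-fold left 3 members higher (Adam12, Adam19 and Adamts14), against 154 over all rows. With an intensity trend and a robust prior together 2 members were lower, Mmp2 joining Mmp16, against 863 over all rows. With any 1 array left out, 5 to 7 members were higher and 1 to 1 lower. Over all rows 729 to 965 were then higher and 497 to 703 lower. Timp3 lost its call without WT replicate 1 (0.52, adjusted p = 0.175), without WT replicate 2 (0.70, adjusted p = 0.0999), and when Tmem161a-KO replicate 2 (0.52, adjusted p = 0.150) or replicate 3 (0.58, adjusted p = 0.165) was left out. Adamts1 passed without WT replicate 2 (0.68) and without Tmem161a-KO replicate 1 (0.66), and Adamts9 without WT replicate 2 (0.61). With the replicate block 9 members were higher and 1 lower, against 1198 higher and 853 lower over all rows. It kept the 6 higher calls of the main comparison. Adamts1 (adjusted p = 0.0155), Adamts9 (adjusted p = 0.0317) and a member below background in both groups joined them. Timp3 had an adjusted p of 0.00328 with the block. Over all rows, same-numbered arrays deviated together at r = 0.025 to 0.095. Such a correlation over all rows cannot exclude pairing for single genes, and the labels give no more than a number. The cause of these changes was not tested. Signal over background limits what can be seen, since 39 of 70 members lay below it in both groups.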
